A study of Mus musculus with 12 samples.

Results

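In a table of 12 RNA-seq libraries from the distal ileum of BALB/c mice, 3 libraries held almost no reads of Fabp6, the bile acid binding protein of ileal enterocytes, and 9 held many. The 3 were PBS replicate 6 and P. gingivalis replicates 1 and 5, and they are called Fabp6-low here. Members were chosen by the measured Fabp6 level: a normalized count below 100 placed a library among the Fabp6-low, and a count above 1000 placed it among the Fabp6-high. Fabp6 stood at 4.32, 2.52 and 16.0 normalized counts in the 3 libraries, in the order just given, which is kept for every set of 3 values in the text. The Fabp6-high library nearest to the threshold was PBS replicate 4 with 11246 normalized counts, and the highest was PBS replicate 2 with 69383. Fabp6 lies on chromosome 11 at positions 43596049 to 43601540 of the mouse build GRCm38. Its values chose the libraries and are no finding.

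By the labels, 6 samples were PBS (phosphate-buffered saline) controls and the other 6 came from treatment with Porphyromonas gingivalis, a bacterium of the mouth linked to gum disease. All samples carry the same labels for strain and tissue, and no age, sex, dose, route or time is given in the sources used here, nor whether each library came from a separate animal. The p-values and standard errors therefore measure the spread between these libraries. Polyadenylated RNA was sequenced, and the libraries held 6553306 to 10378841 reads counted in genes. The 3 Fabp6-low libraries held 6857432 to 8230884. Reads of the mitochondrial ribosomal RNAs made up 8.26%, 10.9% and 2.34% of the reads in the 3 Fabp6-low libraries and 0.836% to 5.27% in the 9 others. Reads of 18S ribosomal RNA reached 0.629% and 4.60% in P. gingivalis replicates 2 and 4.

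The small intestine changes its tasks along its length. The duodenum and jejunum take up sugars, fat, iron and folate, and their enterocytes depend on the transcription factor GATA4 and carry the liver-type fatty acid binding protein FABP1. The terminal ileum takes bile acids back up through the transporter SLC10A2, binds them to FABP6 and exports them through SLC51A and SLC51B. Bile acids there activate the nuclear receptor FXR (gene Nr1h4), which induces Fgf15, a hormone that lowers bile acid synthesis in the liver.

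The 3 and the 9 libraries were compared for each gene on log2(normalized count + 1), with treatment in the model, and every difference below is Fabp6-low minus Fabp6-high on that scale with its standard error (SE). A gene is called where limma's adjusted p (Benjamini-Hochberg) was below 0.05. Because a transcript, and not a label, set the groups, a call describes a gene that separated the 3 libraries from the 9 by more than the spread within them, and tests no treatment and no tissue. Of 15024 genes, Fabp6 left out, 741 were called higher in the Fabp6-low libraries (4.93%) and 587 lower (3.91%), 1328 or 8.84% in all. The median difference over all these genes was -0.004 and the median SE was 0.16. All 3 Fabp6-low values lay above all 9 others for 970 genes (6.46%) and below them for 739 (4.92%). Of the genes called higher, 22 had a mean under 10 in the Fabp6-high libraries, and of those called lower, 52 had one in the Fabp6-low libraries. Differences of at least 1 on the log2 scale were found for 307 of the genes called higher and 174 of those called lower.

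The genes were called because the 3 libraries stood apart together, so the place of each library among them is a description only. Of the 741 genes called higher, PBS replicate 6 lay above all 9 Fabp6-high libraries for 683, P. gingivalis replicate 1 for 725 and P. gingivalis replicate 5 for 719. Of the 587 called lower, they lay below all 9 for 527, 577 and 552. The calls rest on few libraries: if PBS replicate 6 was dropped 338 were higher and 322 lower, dropping P. gingivalis replicate 1 gave 258 and 249, and dropping replicate 5 of that group gave 351 and 368. Without P. gingivalis replicate 2, a Fabp6-high library, they came to 1159 and 788.

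**Figure D1:**
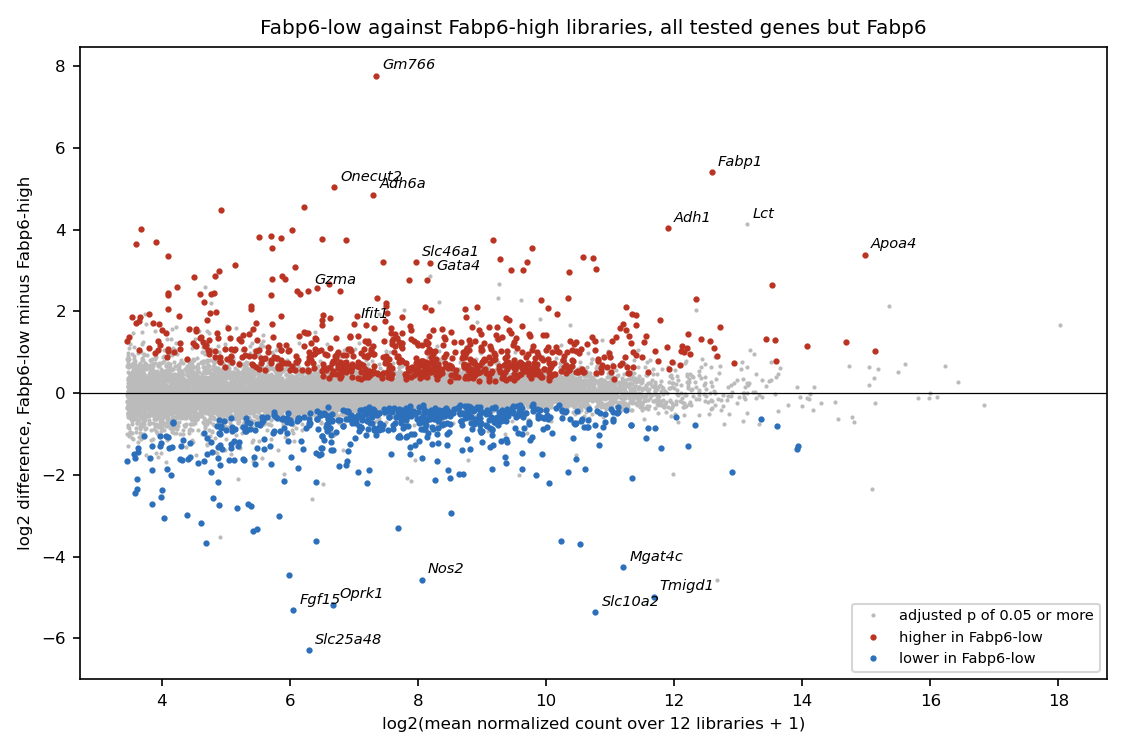
Each point is 1 of 15024 genes, plotted by its mean level over 12 libraries (horizontal axis, log2 of normalized count + 1) and its difference between Fabp6-low and Fabp6-high libraries (vertical axis, log2). Red points are the 741 genes called higher, blue points the 587 called lower; Gata4 and Lct lie among the uncalled genes despite differences of 2.87 and 4.13.

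Markers of the ileum and of the upper small intestine were compared first. Of 12 ileal markers tested, other than Fabp6, 9 were called lower in the Fabp6-low libraries and none was called higher, with a median difference of -1.08. That was 75%, against 3.91% of all genes. Of the 9, Fgf15 had a mean under 10 in the Fabp6-low libraries. Of 19 markers of the upper small intestine, 12 were called higher and none lower, with a median of 1.89. That was 63.2%, against 4.93% of all genes. The 12 include Fabp1, the second marker named with the grouping. They also include Onecut2, which had a mean of 8.70 in the Fabp6-high libraries and reached the mean of 10 only through the Fabp6-low. Without PBS replicate 6, 6 ileal and 8 upper markers were called. With P. gingivalis replicate 1 left out the counts were 7 and 7, and with replicate 5 left out 8 and 7. The 3 libraries, labelled distal ileum like the others, held lower levels of most ileal markers than the 9 others. Fabp6, which chose the libraries, is itself an ileal marker, and several of the 9 handle or sense bile acids as it does. The counts therefore describe the split and do not test the tissue label. The markers that did not follow are given in turn.

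Genes of bile acid uptake and of the ileal hormone that bile acids induce were lower in the Fabp6-low libraries. Slc10a2, the apical bile acid transporter, lies on chromosome 8 at positions 5083219 to 5105351 (GRCm38). It stood at 90.7, 23.9 and 57.2 normalized counts in the Fabp6-low libraries, and at 1236 (lowest), 2141 (median) and 4007 (highest) in the 9 others. The groups were far apart, with a difference of -5.36 (SE 0.38). Fgf15, on chromosome 7 at 144896531 to 144900953, stood at 1.08, 0 and 0 against 13.9, 70.5 and 251. Where no read was seen, up to 3 could have been missed, or 3.78 and 3.43 normalized counts in these P. gingivalis libraries. The fitted difference of -5.32 (SE 0.63) depends on the pseudocount where counts are this low, and the same holds for other genes near 0.

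The export and sensing genes were lower too, but remained well detected. Slc51a, a subunit of the basolateral bile acid exporter, stood at 814, 614 and 669 against 2083, 3043 and 5153, a difference of -2.08 (SE 0.24). Its partner Slc51b stood at 253, 199 and 203 against 453, 821 and 1585 (-1.72, SE 0.30). Nr1h4, which encodes FXR, stood at 289, 321 and 346 against 485, 655 and 1133 (-1.17, SE 0.23). For none of these did any Fabp6-low library reach the lowest Fabp6-high library. In the list of bile acid uptake and signalling genes, 5 of 9 tested members were called lower and 1 higher, Nr1i2, which encodes the xenobiotic receptor PXR (0.68). These were 55.6% and 11.1% of the list, against 3.91% lower and 4.93% higher over all genes.

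The hormones of the ileal L cell were lower as well. Pyy, peptide YY, stood at 65.9, 17.6 and 51.4 against 127, 149 and 237, a difference of -1.93 (SE 0.31). Gcg, the proglucagon gene that yields GLP-1, stood at 221, 180 and 197 against 305, 396 and 509 (-1.0, SE 0.15). Nts, neurotensin, was called lower with overlapping groups, at 487, 274 and 598 against 458, 850 and 1025 (-0.84, SE 0.24). Ghrl, ghrelin, a hormone made mainly in the stomach and upper gut, was called higher at 37.8, 79.4 and 61.7 against 4.35, 12.7 and 19.3 (2.23, SE 0.39). Tph1, the serotonin-synthesising enzyme of enterochromaffin cells, was also called higher (0.58, SE 0.14). Of 16 enteroendocrine genes tested, 2 were called higher and 3 lower (12.5% and 18.8%, against 4.93% and 3.91% of all genes). The higher count was 1 with any Fabp6-low library left out and 4 with P. gingivalis replicate 6 left out.

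Other ileal markers separated the groups little or not at all. Osr2, a transcription factor, was called lower by a narrow margin (-0.62, SE 0.18, limma adjusted p = 0.0484), and P. gingivalis replicate 6 at 199 lay below PBS replicate 6 at 205. Cubn and Amn, the subunits of the receptor that takes up cobalamin bound to intrinsic factor, were not called. Cubn stood at 15570, 9953 and 19646 against 12664, 18817 and 29468 (-0.40, SE 0.27). Amn stood at 990, 595 and 805 against 439, 828 and 1265 (0.04, SE 0.24). Guca2a, guanylin, was not called either, at 3926, 1724 and 3072 against 3517, 4704 and 6148.

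**Figure D2:**
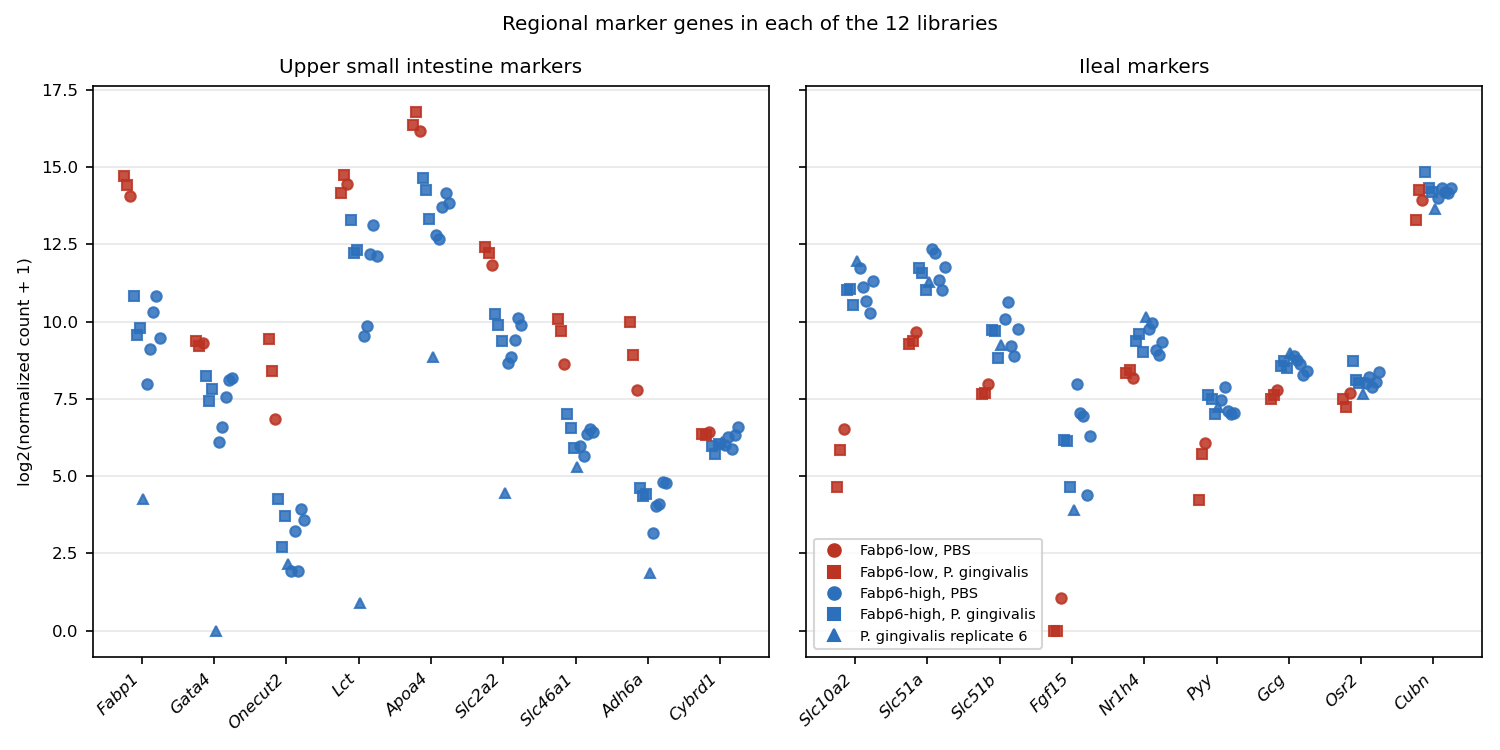
Each point is 1 library, at log2(normalized count + 1), for 9 upper small intestine markers (left) and 9 ileal markers (right). Red marks Fabp6-low and blue Fabp6-high libraries, circles are PBS and squares P. gingivalis, and the triangle is P. gingivalis replicate 6, which lies lowest for Fabp1, Gata4, Lct, Apoa4 and Slc2a2; Cybrd1 and Cubn show overlapping groups.

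Among the markers of the upper small intestine, Fabp1 was the second marker named with the grouping and is given as a description. It lies on chromosome 6 at 71199827 to 71205023 and stood at 16938, 26745 and 21996 normalized counts in the Fabp6-low libraries. The 9 others held 18.3 in P. gingivalis replicate 6, a median of 750 and at most 1821 (5.40, SE 1.05). Onecut2, a transcription factor gene on chromosome 18 at 64340020 to 64400987, stood at 114, 697 and 339 against 2.84, 8.30 and 18.1 (5.03, SE 0.56). PBS replicate 6 was the lowest of the 3 for Fabp1 and for Onecut2, but lay above all 9 others for both. Slc46a1, the proton-coupled folate transporter, stood at 397, 1085 and 826 against 38.3, 81.4 and 128 (3.21, SE 0.33).

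Gata4 and lactase (Lct) lay above all 9 others in all 3 Fabp6-low libraries and were still not called. Gata4, on chromosome 14 at 63198922 to 63271692, stood at 638, 655 and 585 in the Fabp6-low libraries. It had no reads in P. gingivalis replicate 6, which allows up to 2.61 normalized counts there, and 67.1 to 302.8 in the 8 other Fabp6-high libraries. The difference was 2.87 (SE 1.32) with a limma adjusted p of 0.207, and without P. gingivalis replicate 6 it was 1.68 with an adjusted p of 0.0112. Lct stood at 22535, 18205 and 27629, against 0.870 in P. gingivalis replicate 6 and 747.6 to 9933 in the other 8. Its difference was 4.13 (SE 1.98, limma adjusted p = 0.226), and 2.36 without P. gingivalis replicate 6 (adjusted p = 0.0314). The related factor Gata6 was called higher, at 577, 730 and 732 against 252, 426 and 525 (0.77, SE 0.18).

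Several genes of duodenal iron and purine handling did not follow. Cybrd1, the duodenal ferric reductase, stood at 85.3, 81.9 and 80.0 against 51.5, 64.6 and 96.1 (0.33, SE 0.15). Slc40a1, the iron exporter ferroportin, stood at 140, 180 and 117 against 112, 200 and 454 (-0.50, SE 0.34). Ada, adenosine deaminase, stood at 1762, 1079 and 2260 against 414, 1272 and 2615 (0.39, SE 0.42). Ces2e, a carboxylesterase, and Creb3l3, a regulator of apolipoprotein genes, also overlapped between the groups and were not called. Pdx1, a transcription factor of the duodenum and pancreas, was below the mean of 10 needed for testing and stood at 5.40, 7.56 and 1.14 against 0 to 3.34.

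The Hox genes, which mark position along the body axis, gave 2 called lower and none higher among 16 tested. The share called lower was 12.5%, against 3.91% of all genes. Hoxc8 stood at 32.4, 8.82 and 24.0 against 32.5, 56.2 and 79.9 (-1.36, SE 0.31), so that PBS replicate 6 missed the lowest Fabp6-high library by little. Hoxb9 stood at 0, 1.26 and 0 against 1.89, 11.7 and 202, with the highest value in P. gingivalis replicate 6 (-3.66, SE 0.91). Its mean in the Fabp6-low libraries was 0.42. Hoxb9, 1 of the 2 genes called, therefore reached the mean of 10 only through the Fabp6-high libraries. The median over the 16 was -0.46. No Hox gene was called with P. gingivalis replicate 1 left out, 1 was lower with PBS replicate 6 or P. gingivalis replicate 5 left out, and 3 were with PBS replicate 4 left out. With P. gingivalis replicate 6 left out, 2 were lower and 1 was higher.

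The genes with the largest differences covered more than the regional markers. Gm766, named Sult6b2 in RefSeq and a member of the sulfotransferase family, lies on chromosome 6 at 142785781 to 142804466. It stood at 72.3, 1253 and 609 in the Fabp6-low libraries and at 0 to 3.79 in the 9 others, with no reads in 5 of the 9 (7.77, SE 0.67). The mean of Gm766 in the Fabp6-high libraries was 0.75, so it reached the mean needed for testing only through the Fabp6-low libraries. Slc22a13b-ps, annotated as a polymorphic pseudogene of an organic anion transporter, stood at 175, 263 and 353 against 6.58, 9.19 and 15.4 (4.56, SE 0.29). Bbox1, the last enzyme of carnitine synthesis, stood at 91.8, 282 and 203 against 7.17, 11.4 and 19.2 (3.80, SE 0.34). Within the PBS libraries alone, where 1 library was Fabp6-low, the 3 genes differed by 5.74, 3.98 and 2.81. Within the P. gingivalis libraries alone they differed by 9.03, 4.93 and 4.43. All 3 genes were picked for having no overlap between the groups, so a positive difference within either treatment follows from that choice.

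Further genes among the 15 with the largest positive differences had their lowest value in P. gingivalis replicate 6. Dnase1, a secreted nuclease, stood at 1672, 1574 and 1684 against 3.48, 188 and 462 (3.74, SE 1.0). Trim38, which encodes a ubiquitin ligase, stood at 137, 141 and 173 against 0, 22.6 and 30.8 (3.56, SE 0.79). The clone-named genes RP23-227D7.6 and RP23-227D7.7 differed by 4.0 and 3.84, and since both come from 1 clone, how their reads were assigned is uncertain. The 15 genes were picked among called genes with a mean of at least 50 and no overlap between the groups, so that their lack of overlap is no finding.

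Of the 15 genes with the largest negative differences, several were nearly silent in the Fabp6-low libraries. Slc25a48, which encodes a mitochondrial carrier and lies on chromosome 13 at 56438355 to 56474239, stood at 0, 0 and 1.14 against 49.0, 97.5 and 158 (-6.29, SE 0.35). Oprk1, the kappa opioid receptor, stood at 3.24, 1.26 and 3.43 against 79.8, 133 and 189 (-5.17, SE 0.26). Serpina10, a protease inhibitor of the serpin family, stood at 7.56, 1.26 and 1.14 against 47.1, 81.3 and 117 (-4.46, SE 0.39). PBS replicate 4, the Fabp6-high library with the least Fabp6, was the lowest of the 9 for each of these 3 genes. Their means in the Fabp6-low libraries were 0.38, 2.64 and 3.32. All 3 genes thus reached the means of 10 and 50 only through the Fabp6-high libraries, and were picked for large differences without overlap. Their near silence follows in part from that choice.

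More abundant genes were also far apart. Mgat4c, an enzyme that branches N-glycans, stood at 245, 85.7 and 179 against 2418, 3171 and 3505 (-4.26, SE 0.23). Tmigd1, an adhesion protein of epithelial cells, stood at 403, 30.3 and 121 against 2241, 4114 and 6583 (-4.98, SE 0.52). Nos2, the inducible nitric oxide synthase, stood at 21.6, 7.56 and 11.4 against 205, 311 and 557 (-4.56, SE 0.31). Slc34a2, the phosphate transporter of the ileal brush border, stood at 273, 26.5 and 354 against 1380, 1721 and 2572 (-3.68, SE 0.56). Trpm6, a magnesium channel, stood at 125, 17.6 and 66.3 against 269, 446 and 713 (-2.93, SE 0.44). Of the Fabp6-low libraries, P. gingivalis replicate 1 held the lowest value for all 5 genes.

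**Figure D3:**
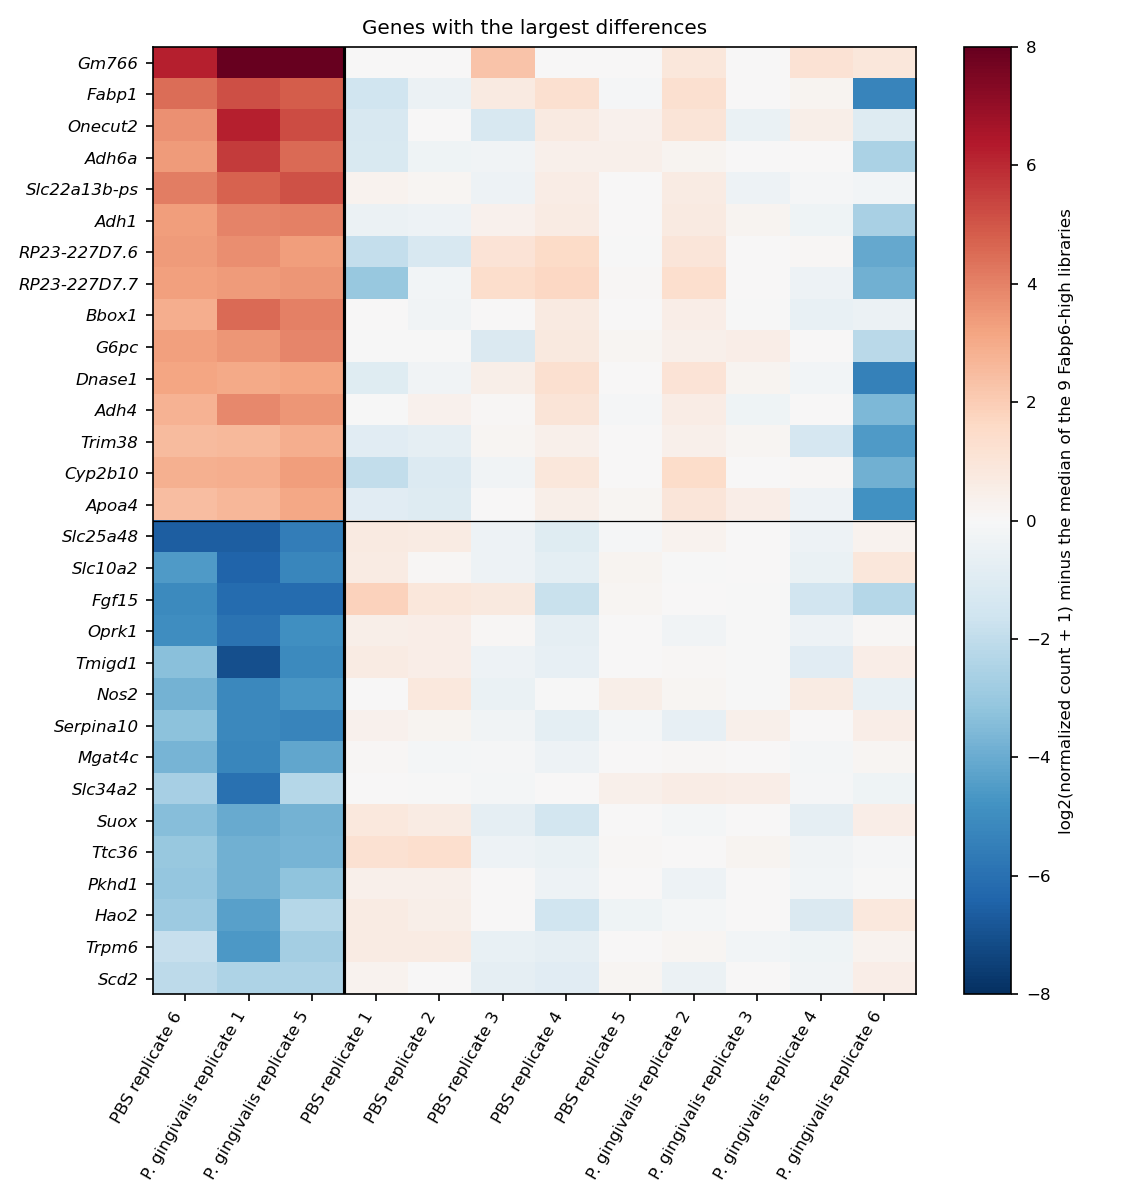
Rows are the 15 genes with the largest positive and the 15 with the largest negative differences among called genes with a mean of at least 50 and no overlap, columns are the 12 libraries, and colour is log2(normalized count + 1) minus the median of the 9 Fabp6-high libraries, capped at 8 in either direction. The first 3 columns are the Fabp6-low libraries, and the last column, P. gingivalis replicate 6, is blue for Fabp1, Dnase1, Trim38 and Apoa4.

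Genes of nutrient handling were next compared by task. In sugar digestion and fructose use, 9 of 13 tested members were called higher and none lower, with a median of 1.14. The share called higher was 69.2%, against 4.93% of all genes. Slc2a2, the basolateral glucose and fructose transporter GLUT2, stood at 3654, 5505 and 4775 against 20.9, 669 and 1215 (3.31, SE 0.92). G6pc, glucose-6-phosphatase, stood at 231, 277 and 362 against 4.35, 22.7 and 40.4 (3.78, SE 0.51). Treh, the brush border trehalase, stood at 2791, 3093 and 3575 against 257, 665 and 1101 (2.32, SE 0.32). Khk, ketohexokinase, which begins the breakdown of fructose, was called as well (1.14, SE 0.30). Without P. gingivalis replicate 1, or without replicate 5, 2 of the 13 were called, and without PBS replicate 6, 5 were.

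In fat absorption and chylomicron assembly, 7 of 25 members were called higher, Fabp1 among them, and none lower (median 0.68). The share called higher was 28%, against 4.93% of all genes. Apoa4, an apolipoprotein of chylomicrons on chromosome 9 at 46240696 to 46243459, stood at 72646, 84770 and 112565 against 459, 13309 and 25706 (3.39, SE 0.91). Apoc3, an inhibitor of lipoprotein lipase, stood at 3388, 3245 and 3997 against 87.0, 520 and 1052 (2.95, SE 0.54). Dgat2, which makes triglyceride, stood at 4147, 6311 and 6324 against 736, 1377 and 1879 (2.10, SE 0.23). Cd36, a fatty acid transporter, stood at 1840, 1877 and 2728 against 224, 588 and 1424 (2.08, SE 0.39). Not called was Npc1l1, the cholesterol transporter of the brush border, at 5496, 4150 and 4787 against 899, 3199 and 6982, a gene picked after its values were seen. The count was 13 when P. gingivalis replicate 6 was left out, 4 when replicate 1 or 5 was, and 5 when PBS replicate 6 was.

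Fatty acid oxidation gave 6 of 19 members called higher and none lower (median 0.35). The share called higher was 31.6%, against 4.93% of all genes. The count was 2 with P. gingivalis replicate 1 or 5 left out, 4 with PBS replicate 6 left out and 9 with P. gingivalis replicate 2 left out. Pdk4, a kinase that shuts off glucose oxidation, stood at 265, 377 and 593 against 54.2, 71.0 and 142 (2.33, SE 0.26). Cyp4a10, a fatty acid hydroxylase and PPAR-alpha target, stood at 52.9, 23.9 and 41.1 against 0, 1.04 and 8.65 (4.02, SE 0.65), and it reached the mean of 10 only through the Fabp6-low libraries. Ppargc1a, a co-activator of oxidative genes, stood at 620, 983 and 897 against 222, 418 and 516 (1.06, SE 0.23). The 12 tested transcripts made by the mitochondrial genome gave 3 called higher, mt-Nd5, mt-Nd4 and mt-Nd2, at 1.55, 1.40 and 1.39. That was 25%, against 4.93% of all genes. No member was called without PBS replicate 6 or without P. gingivalis replicate 1, and 5 were without P. gingivalis replicate 2. These counts stand beside the mitochondrial ribosomal RNA shares given above, which were highest in P. gingivalis replicate 1 and PBS replicate 6, and whose part in these 3 calls was not tested.

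Peptide and amino acid handling split in both directions, with 3 of 24 members called higher and 3 lower. Each share was 12.5%, against 4.93% and 3.91% of all genes. No member was called higher with PBS replicate 6 left out, 1 with P. gingivalis replicate 1 left out, and 6 and 5 with P. gingivalis replicates 2 and 6 left out, while 2 to 4 were called lower in each case. Ace, angiotensin-converting enzyme, a brush border peptidase, stood at 28663, 28040 and 33115 against 1081, 5973 and 11854 (2.66, SE 0.56). Slc36a1, a proton-coupled amino acid transporter, stood at 1447, 1607 and 1201 against 185, 431 and 689 (1.80, SE 0.40). Mep1a, a subunit of the peptidase meprin, stood at 3889, 1214 and 2638 against 6844, 9364 and 12434 (-1.92, SE 0.28). Slc1a1, the transporter of glutamate and aspartate, stood at 477, 286 and 513 against 1019, 1191 and 1320 (-1.48, SE 0.15). The minerals and vitamins list gave 2 of 16 higher and 2 lower, and 1 to 2 in either direction with each library left out. With all libraries its shares were 12.5% each way, against 4.93% and 3.91% of all genes. Beside Slc46a1, ferritin heavy chain (Fth1, 0.70) was called higher, while Slc5a6, the transporter of biotin and pantothenate (-1.21), and Atp2b1, a calcium pump (-0.85), were called lower.

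Enzymes that handle alcohols, drugs and other foreign compounds were higher in large part. Of 36 tested, 18 were called higher and 2 lower, with a median of 0.96. These were 50% and 5.56%, against 4.93% and 3.91% of all genes. Adh1, alcohol dehydrogenase 1, stood at 8993, 13854 and 14929 against 151, 899 and 1451 (4.04, SE 0.52). Adh6a stood at 219, 1021 and 481 against 2.61, 19.7 and 26.9 (4.86, SE 0.59). Cyp2b10, a target of the nuclear receptor CAR, stood at 2217, 2294 and 3132 against 20.9, 310 and 848 (3.54, SE 0.84). The glutathione transferases Gsta1, Gsta2 and Gstm3 were called higher at 1.83, 2.86 and 1.89, and Nr1i3, which encodes CAR, at 2.06. The members called lower were the export pumps Abcg2 (-1.03) and Abcb1a (-0.80). Members of the Cyp2c, Cyp3a, Adh and Gsta families resemble one another in sequence, so reads could be split between them. The count of higher calls was 10 without P. gingivalis replicate 1, 10 without replicate 5 and 11 without PBS replicate 6.

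Genes of cholesterol synthesis and uptake were lower in the Fabp6-low libraries. These enzymes are switched on together by the factor SREBP2 when sterols are scarce in the cell. Of 18 tested, 12 were called lower and none higher, with a median of -0.79. From 10 to 13 were called lower when each library was left out in turn. With all libraries the share was 66.7%, against 3.91% of all genes. Hmgcs1, which makes the precursor HMG-CoA, stood at 1721, 1360 and 1781 against 2882, 3407 and 4819 (-1.10, SE 0.16). Sqle, squalene epoxidase, stood at 366, 367 and 318 against 573, 749 and 1020 (-1.12, SE 0.15). Lss, lanosterol synthase, stood at 286, 309 and 312 against 440, 588 and 758 (-0.94, SE 0.13). Within the 6 PBS libraries alone the median of the list was -0.79, and within the 6 P. gingivalis libraries alone it was -0.78. The PBS value rests on 1 Fabp6-low library, PBS replicate 6, and so has no replicate in that class.

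**Figure D4:**
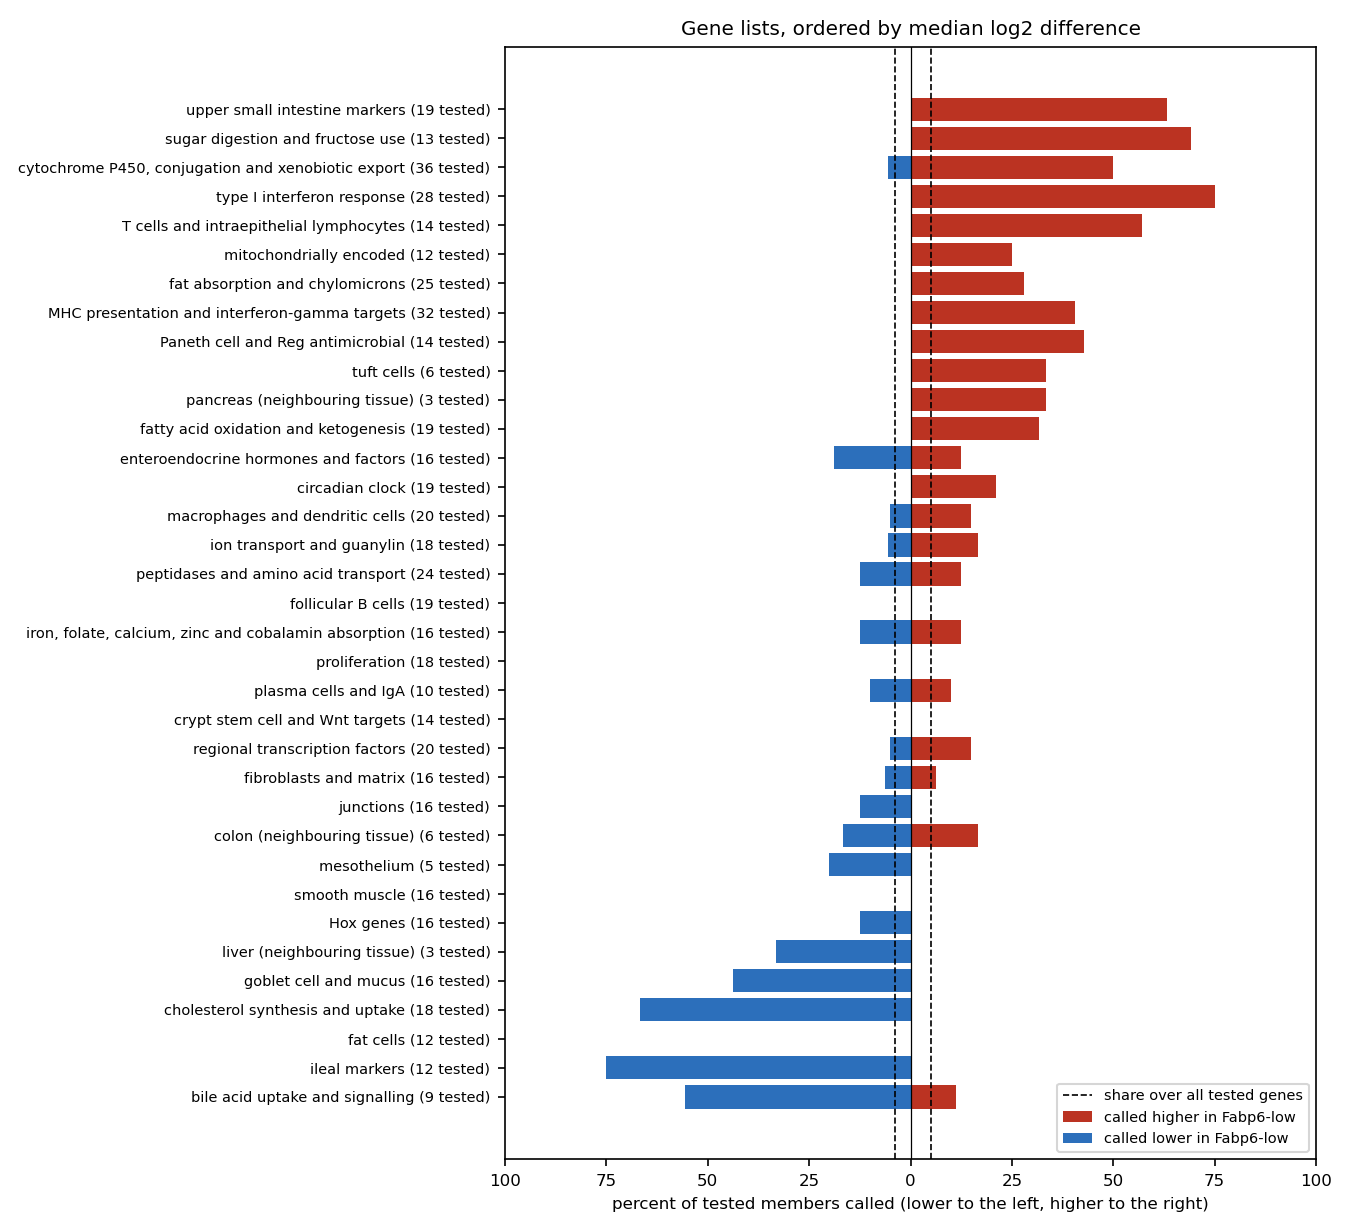
Bars give the percent of each list's tested members called higher (red, to the right) or lower (blue, to the left) in the Fabp6-low libraries, with lists ordered by median difference and dashed lines at 4.93% and 3.91%, the shares over all 15024 genes. Ileal markers and cholesterol synthesis reach 75.0% and 66.7% lower, and the type I interferon list 75.0% higher.

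Genes of the type I interferon response were higher in the Fabp6-low libraries in large part (75.0% of members called, against 4.93% of all genes). Interferons bind receptors that activate a complex of STAT proteins and IRF9, and this complex switches on antiviral genes. Of 28 members tested, 21 were called higher and none lower, with a median of 0.81, and all 28 differences were positive. Ifit1, an antiviral RNA-binding protein, stood at 245, 280 and 249 against 45.2, 71.4 and 183 (1.69, SE 0.32). Usp18, a negative regulator of interferon signalling, stood at 71.3, 87.0 and 56.0 against 20.0, 23.6 and 31.7 (1.42, SE 0.20). Irf9 itself stood at 379, 441 and 391 against 203, 251 and 320 (0.59, SE 0.10). Dhx58, which encodes the RNA sensor LGP2, stood at 64.8, 102 and 62.9 against 23.4, 33.2 and 44.2 (1.06, SE 0.19). Among the 9 Fabp6-high libraries P. gingivalis replicate 4 was the highest for Ifit1, Irf9 and Dhx58.

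The number of interferon calls depended on which libraries entered. With PBS replicate 6 left out 8 members were called, and with P. gingivalis replicate 1 or 5 left out 5 or 14 were. The median stayed between 0.64 and 0.93 with each library left out. It was 0.72 within the PBS libraries, where 1 library was Fabp6-low, and 0.82 within the P. gingivalis libraries.

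Promoter sequence was examined for the letters GAAA repeated after a gap of any 2 bases, the core of the element that the interferon-activated complex binds, because so many of its targets were called together. The 250 bases before the start of each gene in RefSeq (GRCm38.p6) were searched on both strands, and overlapping matches counted once per gene. The motif was present in 936 of 27025 genes (3.46%). Of the 21 interferon genes called, 14 had a promoter in the table, and 9 of these held the motif (64.3%). Over all 28 members tested, it was found in 9 of 18 promoters. The list is made of genes of the interferon response, so a high share follows from membership and is no finding about these libraries. Among genes called in other lists it was found in 3 of 9 promoters of antigen presentation and interferon-gamma targets (8 of 23 over all tested members, 34.8%), 1 of 10 of upper small intestine markers and none of 6 of cholesterol genes. A match describes letters in a window and not a bound site. The windows of the 5 genes with the largest differences among the 9 are shown, each read 5′ to 3′ on the gene's strand, with 25 bases on either side as far as the window reaches and the match nearest to the start in capitals. A repeat of TTTC with the same gap is the motif on the opposite strand.
Ifit1: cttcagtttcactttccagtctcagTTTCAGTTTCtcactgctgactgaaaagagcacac
Isg15: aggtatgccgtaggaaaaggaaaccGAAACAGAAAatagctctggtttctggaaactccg
Oas3: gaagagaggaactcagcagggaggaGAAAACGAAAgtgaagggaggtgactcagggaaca
Rsad2: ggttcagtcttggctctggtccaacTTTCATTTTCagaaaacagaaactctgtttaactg
Oas1a: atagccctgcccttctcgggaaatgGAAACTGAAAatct
The windows lie at chr19:34640779-34640838 on the plus strand (Ifit1), and on the minus strand at chr4:156200850-156200909 (Isg15), chr5:120777700-120777759 (Oas3), chr12:26456538-26456597 (Rsad2) and chr5:120907526-120907564 (Oas1a). In Isg15, an antiviral ubiquitin-like protein, the match ended 56 bases before the start, and the gene stood at 82.1, 99.6 and 67.4 normalized counts against 16.5, 25.1 and 61.0. Oas1a and Oas3, sensors that make the second messenger of RNase L, differed by 0.93 (SE 0.22) and 1.48 (SE 0.40). Rsad2, viperin, differed by 1.07 (SE 0.28).

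The neighbouring list of antigen presentation genes and interferon-gamma targets gave 13 of 32 members called higher and none lower (median 0.49). The share called higher was 40.6%, against 4.93% of all genes. Psmb8, a subunit of the immunoproteasome, stood at 621, 897 and 661 against 239, 290 and 392 (1.24, SE 0.15). Tap1, the peptide transporter for class I molecules, stood at 255, 295 and 257 against 115, 146 and 169 (0.89, SE 0.11). The immunity-related GTPases Igtp (1.08, SE 0.16) and Irgm2 (0.99, SE 0.16) were called too, and these genes have close copies between which reads may be split. The count was 8 with PBS replicate 3 or 6 left out, and 6 or 5 with P. gingivalis replicate 1 or 5 left out.

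T cell and intraepithelial lymphocyte genes were higher in the same libraries. Of 27 genes in that list, 14 passed the mean of 10, and 8 of the 14 were called higher and none lower (median 0.80). That was 57.1% of the 14, against 4.93% of all genes. The other 13, with Cd3d, Cd3e and Cd8b1 among them, were too low to test. Among the genes called, 1 had a mean under 10 in the Fabp6-high libraries. Cd8a, the co-receptor of cytotoxic T cells, stood at 48.6, 66.8 and 50.3 against 11.7, 17.1 and 29.6 (1.46, SE 0.25). Cd7 stood at 50.7, 68.1 and 42.3 against 8.70, 15.6 and 24.0 (1.80, SE 0.31). Gzma, the protease granzyme A, stood at 111, 292 and 186 against 8.70, 38.6 and 51.9 (2.51, SE 0.45), and Gzmb at 39.9, 87.0 and 78.9 against 3.48, 9.86 and 23.9 (2.44, SE 0.47). None of the 3 libraries overlapped the 9 for these 4 genes. In bulk tissue, more cells of a type and more RNA per cell cannot be told apart. The part of these cells in the interferon calls was not tested. The count was 5 with PBS replicate 6 left out and 4 with P. gingivalis replicate 1 left out.

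**Figure D5:**
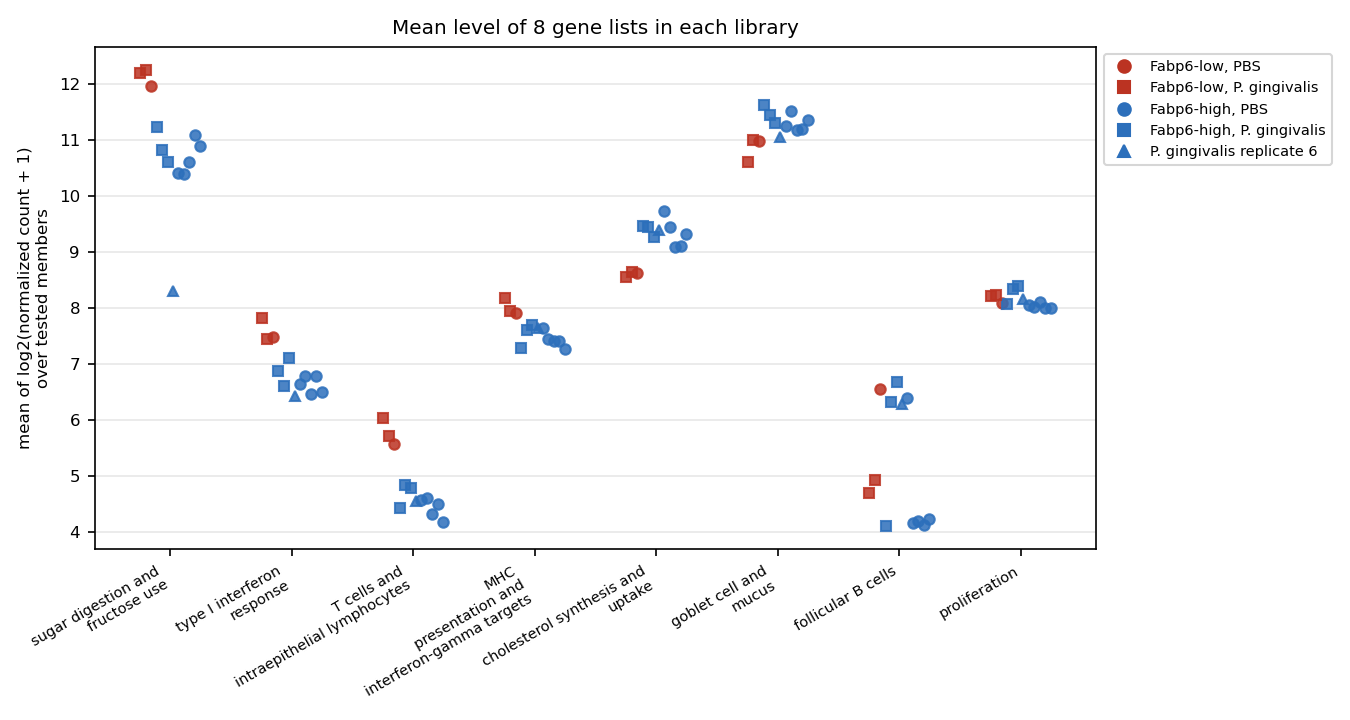
Points give, for each library, the mean of log2(normalized count + 1) over the tested members of 8 gene lists, with colours and symbols by Fabp6 class and treatment. Fabp6-low libraries (red) lie above all others for the sugar, interferon, T cell and MHC lists and below all others for cholesterol and goblet lists, while the follicular B cell list spans 4.10 to 6.67 with both classes mixed.

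Secretory cell types differed in direction. In the goblet cell and mucus list, 7 of 16 members were called lower and none higher (median -0.62). The share called lower was 43.8%, against 3.91% of all genes. Agr2, a disulfide isomerase needed to make mucin, stood at 1916, 1487 and 1535 against 3217, 4161 and 5962 (-1.33, SE 0.17). Clca1, a secreted protease of mucus, stood at 9461, 4680 and 8726 against 15368, 16977 and 22533 (-1.29, SE 0.23). Spdef, a transcription factor of goblet cell maturation, stood at 195, 145 and 162 against 216, 248 and 284 (-0.55, SE 0.10). The count ranged from 5 to 9 with each library left out.

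In the Paneth cell and Reg list, 6 of 14 members were called higher and none lower (median 0.44), and 4 to 7 higher with each library left out. The share called higher was 42.9%, against 4.93% of all genes. Lyz1, the Paneth cell lysozyme, was among the 6 (1.02, SE 0.24). Defa24, an alpha-defensin, stood at 48591, 46081 and 43241 against 16899, 19082 and 26209 (1.24, SE 0.21), and Defa17 was called as well (1.02, SE 0.18). Alpha-defensin genes are nearly identical, so their separate values are uncertain. Reg1, a lectin-like secreted protein, was spread widely among the Fabp6-low libraries, at 73.4, 1499 and 245 against 20.9, 31.4 and 36.3 (3.22, SE 0.58). In tuft cells, 2 of 6 tested members were called higher, among them Trpm5, a cation channel of taste signalling, at 1.73 (SE 0.28). The share was 33.3%, against 4.93% of all genes, but with 6 members tested it rests on few genes. Trpm5 reached the mean of 10 only through the Fabp6-low libraries, and 1 tuft cell gene was called with P. gingivalis replicate 1 or 5 left out.

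The lists of stem cell and proliferation genes gave no calls. None of 14 stem cell and Wnt target genes was called by limma (median -0.05), and none of 18 proliferation genes (median 0.01). Lgr5, the receptor that marks crypt stem cells, stood at 112, 101 and 167 against 109, 150 and 194 (-0.29, SE 0.18). Cdc6 and Birc5, genes of replication and cell division, differed by -0.41 (SE 0.14) and 0.36 (SE 0.16) and overlapped between the groups. No member of these lists was called when any library was left out.

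Genes of other cell types and neighbouring tissues were compared in the same way. Of 19 follicular B cell genes none was called, and the list mean was 6.56, 4.70 and 4.93 in the Fabp6-low libraries and 4.10 to 6.67 in the 9 others on the log2 scale. The median difference of that list was 1.82 within the PBS libraries, where 1 library was Fabp6-low, and -0.88 within the P. gingivalis libraries. None of 16 smooth muscle genes was called, all 16 differences were negative (median -0.40), and the list mean of 8.61 to 8.79 in the Fabp6-low libraries lay inside the range of 8.21 to 9.78 in the others. With P. gingivalis replicate 2 left out, 5 smooth muscle genes were called lower. None of 12 fat cell genes was called (median -1.08), and list means ran from 3.51 to 7.97 and from 3.20 to 9.27. Of 16 fibroblast genes, Fbln1 was called higher (1.0) and Lum lower (-0.76). That was 6.25% each way, near the 4.93% and 3.91% over all genes. Of 20 macrophage and dendritic cell genes, 3 were called higher, Csf1r (0.83) and Itgax (0.59) among them, and Cd14 was called lower (-1.28). These were 15% and 5% of that list. Leaving out any Fabp6-low library gave 1 call higher in that list, and none higher in the fibroblast list.

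No stomach or Brunner gland gene reached the mean of 10, and Gkn1, Muc6 and Tff2 had no reads in any library. Of 20 pancreas genes 3 were tested. Prss1, trypsin, had no reads in any library, while Clps, colipase, was called higher at 557, 440 and 370 against 188, 251 and 363 (0.85, SE 0.17). Clps was the only 1 of the 3 called, or 33.3%, against 4.93% of all genes. Of 6 colon genes tested, Prdm16 was called higher (2.78, SE 0.27) and Mettl7b lower (-0.78, SE 0.20). That was 16.7% each way, against 4.93% and 3.91% of all genes, with 1 gene in each direction. Car1, a carbonic anhydrase of the colon, was near 0 in the Fabp6-low libraries and reached 498 in P. gingivalis replicate 6.

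Treatment was set by the labels and so could be tested apart from the grouping by Fabp6. Fabp6-low libraries were 1 of 6 PBS and 2 of 6 P. gingivalis libraries (two-sided Fisher's exact test, p = 1). With the Fabp6 class in the model, no gene differed between P. gingivalis and PBS over the 12 libraries by limma at an adjusted p below 0.05, and 546 of 15024 had an unadjusted p below 0.05. The smallest adjusted p was 0.15, and DESeq2 called 2 genes higher and 23 lower. The difference between Fabp6-low and Fabp6-high libraries did not differ between treatments for any gene by limma's interaction term. Its smallest adjusted p was 0.776, and 332 genes had an unadjusted p below 0.05. With 1 PBS library in the Fabp6-low class this term has little precision.

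Within the 9 Fabp6-high libraries, 5 PBS against 4 P. gingivalis, limma called 1 gene (0.00666% of 15024), and 440 had an unadjusted p below 0.05. It was Bcl6, a transcriptional repressor of germinal centre B cells and follicular helper T cells, on chromosome 16 at 23965052 to 23988852. Bcl6 stood at 62.8, 74.7, 66.3, 69.2 and 75.2 normalized counts in PBS replicates 1 to 5, and at 131, 143, 133 and 140 in P. gingivalis replicates 2, 3, 4 and 6. The groups did not overlap, with a difference of 0.96 (SE 0.11, P. gingivalis minus PBS, limma adjusted p = 0.029). Leaving out any 1 library but P. gingivalis replicate 6 ended the call, with adjusted p up to 0.196 and differences of 0.93 to 0.99, and upper-quartile rescaling gave an adjusted p of 0.0614. The Fabp6-low libraries did not follow that order: PBS replicate 6 held 119, above P. gingivalis replicate 5 at 102 and below P. gingivalis replicate 1 at 131. Over all 12 libraries with the class in the model the difference was 0.73 (SE 0.15, limma adjusted p = 0.246). Among the PBS Fabp6-high libraries, the follicular B cell list mean was 6.39 in replicate 1 and 4.12 to 4.24 in replicates 2 to 5. In P. gingivalis replicates 2, 3, 4 and 6 the list mean was 4.10, 6.33, 6.67 and 6.29. The part of follicle content in the Bcl6 call was not tested.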

How the data were processed

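Polyadenylated RNA of 12 libraries was analysed from 1 deposited table of 45808 genes. Its deposited values are a normalized signal: judged from the table's name and its values, the authors scaled each library's gene counts by a single factor. HISAT2, Cufflinks, DESeq2, FastQC and the build GRCm38 (mm10) appear, without versions, in the submitters' processing notes. How reads were counted, on which strand and with which annotation is not stated in those sources, so reads of overlapping, antisense and near-identical genes cannot be told apart. Dividing by the step between values recovered whole reads for 100% of values (tolerance 0.001 reads).

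Libraries were split by Fabp6 (below 100 or above 1000 normalized counts), and limma 3.58.1 in R 4.3.3 was fitted with a mean-variance trend and treatment as covariate on log2(deposited value + 1). The fit held 15025 genes with a mean of at least 10, and Fabp6 was then left out. Tests were two-sided with Benjamini-Hochberg adjustment over all genes, at 0.05. The pseudocount of 1 makes differences of weak genes too small. The steps were run on simulated counts with planted changes, drawn for each gene independently. That simulation held no outlying library, so it cannot show how the calls behave with a library such as P. gingivalis replicate 6. Genes named are the 15 with the largest called differences in each direction (mean of at least 50, no overlap between the groups), all tested regional markers, Bcl6, and up to 4 called or 2 uncalled members per list with the smallest p. Others named in passing, such as Npc1l1, Pdx1, Car1, Lyz1 and the promoter examples, were chosen after their values were seen. A few genes are not reported here. The members and gene lists were chosen with earlier results of these data known. Alternatives were edgeR 4.0.16 and DESeq2 1.42.0 on the recovered reads, other pseudocounts, filters and scalings, sample weights, each treatment alone, a replicate block and leaving out each library. Gene positions are from GENCODE M21 or RefSeq, both GRCm38, and were found for 138 of 140 genes. Of 371 promoters checked, 270 shared a stretch of sequence with the first part of an annotated transcript of the same gene, read on the same strand. That check does not fix the exact start, and it was not aimed at the genes whose windows are shown. Intervals and floors cover counting error only.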

Additional observations from a re-analysis of the deposited data

Results flagged for a closer look

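Within the 9 Fabp6-high libraries, the level of each named gene and the mean of each gene list were searched for a library whose gap to its neighbour took up an unusually large part of the whole range on the log2 scale (Dixon's criterion). Of 168 sets of values, 26 held such a library. For a single set, chance alone gives about 1 in 20. These sets share genes and libraries, so their count cannot be set against that rate. P. gingivalis replicate 6 was the library in 23 of them.

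In P. gingivalis replicate 6, genes that were high in the Fabp6-low libraries lay far below the 8 other Fabp6-high libraries. Among the fat absorption genes, Fabp1 stood at 18.27 normalized counts (others 252.1 to 1821), Apoa4 at 459.3 (6469 to 25710), Apoc3 at 86.98 (324.9 to 1052) and Creb3l3 at 603.7 (1716 to 3999). Among the sugar genes, lactase (Lct) stood at 0.8698 (747.6 to 9933), Slc2a2 at 20.88 (404.1 to 1215), Treh at 257.5 (546.8 to 1101) and Khk at 282.7 (689.9 to 1100). Among the detoxifying enzymes, Adh1 stood at 151.4 (659.8 to 1451), Adh4 at 1.74 (25.2 to 68.28), Gstm3 at 23.49 (57.39 to 121.1) and Cyp3a11 at 399.3 (1886 to 4305). Gata4 and Trim38 stood at 0, with others from 67.12 and from 8.37, Dnase1 at 3.479 (93.54 to 461.6) and Gzma at 8.698 (21.52 to 51.88). Lum, a matrix proteoglycan, stood at 658.5, above the others (287.5 to 405.6).

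List means on the log2 scale showed the same library apart. The means were 9.537 for fat absorption (others 10.81 to 11.62), 8.301 for sugar digestion (10.4 to 11.24), 6.283 for upper small intestine markers (8.335 to 9.581) and 5.753 for enteroendocrine genes (6.519 to 6.694). They were 5.694 for Hox genes (3.91 to 4.71) and 7.742 for colon genes (6.183 to 6.682), both above the others. The cause was not tested.

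In other libraries, Gm766 stood at 3.787 in PBS replicate 3 (others up to 1.196), Pdk4 at 142.3 in PBS replicate 4 (54.24 to 85.25) and the stem cell list mean at 7.447 in PBS replicate 2 (7.654 to 7.813).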

How the results depend on the processing

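Of 3573 values recomputed for named genes, 3161 kept their direction and their side of the threshold, 379 fell short of it, 28 newly passed it and 5 changed sign, all 5 for Amn. Its difference of 0.04 became 0.00 with DESeq2 and -0.12 within P. gingivalis libraries, and ran from -0.12 to 0.20 with each library left out. Calls between Fabp6-low and Fabp6-high libraries ranged from 258 to 1159 higher and from 249 to 788 lower with each library left out. They were 103 and 61 within PBS libraries, 92 and 110 within P. gingivalis libraries, and 1339 and 1011 with sample weights. The replicate block gave 390 lower. Same-numbered libraries, with treatment means removed, correlated at r from -0.542 to 0.081. The Fabp6 split was left in those values, so they cannot decide whether numbers pair samples. Without the 2 libraries rich in 18S ribosomal RNA, a choice made after seeing the data, 1179 were higher. edgeR called 1319 genes and DESeq2 1670, sharing 1246 and 1307 with the 1328 called by limma. For treatment with the Fabp6 class in the model, calls were 2 lower with pseudocount 5, 2 higher and 23 lower with DESeq2, 33 lower with weights, 1 lower without the 18S-rich libraries, and 0 to 1 higher and 0 to 54 lower with a library left out (54 without P. gingivalis replicate 6). Within Fabp6-high libraries, calls were 3 higher and 2 lower without a filter, 2 and 11 with DESeq2, 2 and 69 with the replicate block, 0 higher with upper-quartile scaling or without the 18S-rich libraries, and 0 to 1 higher and 0 to 8 lower with a library left out. Among lists whose median exceeded its members' usual error, medians reversed for colon genes (0.19 with a filter of 50, 0.04 without), pancreas genes (-0.07 without a filter) and mesothelium (-0.57 to 0.04 with each library left out). With a library left out, medians near 0 also changed sign for follicular B cells (0.14, from -0.88 to 0.48), regional transcription factors (-0.08, up to 0.07) plasma cells (-0.02, up to 0.14), stem cell genes (-0.05, up to 0.02) and proliferation (0.01, down to -0.04). The causes were not tested. At these depths a gene under 10 normalized counts was not tested.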

Other observations

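Genes of the daily clock gave 4 of 19 tested members called higher in the Fabp6-low libraries and none lower, with a median of 0.26. The share called higher was 21.1%, against 4.93% of all genes. Cry1, a repressor of the clock, stood at 232, 237 and 257 normalized counts against 120 (lowest), 150 (median) and 203 (highest) in the 9 others, a difference of 0.51 (SE 0.11). Hlf, a clock output factor, stood at 260, 378 and 301 against 117, 173 and 234 (0.80, SE 0.19). Nfil3 (0.83, SE 0.23) was called with overlapping values. The count was 0 with PBS replicate 6 left out, 1 with P. gingivalis replicate 5, and 2 with P. gingivalis replicate 1 or 4 or PBS replicate 3. The labels give no time of sampling.

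Genes of ion transport and cell junctions differed by member. Guca2b, uroguanylin, stood at 7056, 7451 and 8347 against 1669, 3813 and 5524 (1.12, SE 0.27). Slc9a3, the brush border sodium-proton exchanger, stood at 510, 700 and 671 against 61.8, 229 and 381 (1.58, SE 0.45). No ion transport gene was called higher when any of the 3 Fabp6-low libraries was left out. Cldn2, a claudin that forms pores for cations, stood at 234, 299 and 257 against 413, 568 and 1120 (-1.31, SE 0.24). Cldn23 was also called lower (-0.84, SE 0.18), and these were the 2 called among 16 junction genes tested. That was 12.5%, against 3.91% of all genes called lower.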
